A study of Mus musculus with 8 samples.

Results

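Kinesins are the motor proteins that walk along, cross-link or dismantle microtubules, and the members described here are the mouse genes named Kif followed by a number. They were taken by that name from the deposited gene table, which gave 38 genes of 55487 named rows. No measured value entered that rule. From textbook knowledge they were divided into 12 mitotic kinesins, which build the spindle, move chromosomes or complete cell division, 13 transport kinesins, which carry vesicles, organelles and intraflagellar cargo, and 13 other kinesins of cilia, centrosomes and microtubule regulation or of less settled role. This division was made with earlier results of these data known. Kinesin genes without the Kif-number name, such as Cenpe and Kifc1, were kept as a separate list. Kif2a, which acts in neurons as well as at spindle poles, was placed among the other kinesins.

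RNA was sequenced from ileal crypt cells of C57BL/6 mice. One group of 4 libraries came from mice given CPT-11, also called irinotecan, at 20 mg/kg for 7 days, and the other 4 came from mice given vehicle. Irinotecan is a prodrug whose active form traps topoisomerase I on DNA. Crypts were freed with EDTA, strained and trypsinised without a sort, so other mucosal cells could be carried along. Nothing in the labels states that the 4 libraries of a group are 4 mice. The p-values therefore weigh the group difference only against the spread among these libraries, which may be technical.

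Kinesins share a motor domain that binds ATP and tubulin. In a dividing cell, plus-end-directed motors push the spindle poles apart, chromosome-bound motors align the chromosomes, depolymerising kinesins trim microtubule ends, and a last set assembles the midzone where the daughter cells separate. These genes are known for expression that peaks late in the cell cycle. Transport kinesins work in dividing and non-dividing cells alike. In the intestinal crypt, rapidly dividing progenitors sit above the stem and Paneth cells and give rise to absorptive and secretory cells that no longer divide.

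The mitotic kinesins also had a feature in common that the grouping did not use. RefSeq promoter windows (GRCm38.p6, 250 bases before to 50 after the start) were given for 31 of the 38 genes, in 35 windows. The mitotic windows lack Kif20a and include Kif2b, which had too few counts to be tested. The transport windows lack Kif5a, Kif5b and Kif13b, so these sets are not the kinesins tested for expression below. The letters TTTGAA, the core of the element known as CHR from the promoters of late cell cycle genes, were searched together with CCAAT on both strands. TTTGAA was found in 9 of 11 mitotic windows (81.8%), in 1 of 12 transport windows (8.33%), in 2 of 12 windows of the other kinesins (16.7%), and in 17.9% of all 32851 windows. CCAAT was found in 63.6% of the mitotic, 33.3% of the transport and 37.4% of all windows. Kif1b was counted in overlapping windows, and by gene CCAAT was in 7 of 11 mitotic and 3 of 10 transport genes. The mitotic kinesins with TTTGAA were Kif2c, Kif4, Kif11, Kif14, Kif15, Kif18b, Kif20b, Kif22 and Kif23, and the transport kinesin with it was Kif1a. Among the matched windows, those of Kif2c, Kif4, Kif14, Kif1a and Kif27 lie wholly inside the GENCODE M21 gene. Kif4 and Kif14 begin at 100625737 and 136466343, and their windows at 100625815 and 136467598. Kif2c, Kif1a and Kif27, on the minus strand, begin at 117182639, 93101951 and 58359122, and their windows end at 117179022, 93082730 and 58355197. Letters of the E2F type, searched on either strand in the form TTCCCGC and in the variants TTGGCGC and also TTGCCGC besides TTCGCGC, were in 2 mitotic windows, those of Kif15 and Kif18a (18.2%), against 9.57% of all windows. CCAAT can share letters with the TTGGCGC form, while TTTGAA shares at most a single base with CCAAT and none with the E2F forms. A match describes the letters only, and no binding was measured.

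In the 120 bases from 90 before to 30 after the start, TTTGAA was in 7 of 11 mitotic windows, in 1 of 12 transport windows and in 6.52% of all windows. TTTGAA together with CCAAT was in 5 of 11 mitotic windows, in 0 of 12 transport windows and in 1.37% of all. The 120-base stretches are printed for 6 mitotic kinesins that were lower with CPT-11 and for 2 transport kinesins, to let the letters be compared. The 6 were chosen because they hold TTTGAA there, which Kif2c, Kif14 and Kif18a do not, although all 3 were lower, and which the transport kinesin Kif1a does. As given above, the windows of Kif2c and Kif14, and the matched window of Kif1a, lie inside the gene and not at its outer start. The printed stretches are written along the gene's own strand, and capitals mark TTTGAA or CCAAT or, where the match lies on the opposite strand, their complements TTCAAA and ATTGG.
Kif11, chr19:37376292-37376411, plus strand: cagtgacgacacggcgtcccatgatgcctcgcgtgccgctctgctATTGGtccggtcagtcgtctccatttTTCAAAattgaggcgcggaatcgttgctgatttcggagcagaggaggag
Kif15, chr9:122950991-122951110, plus strand: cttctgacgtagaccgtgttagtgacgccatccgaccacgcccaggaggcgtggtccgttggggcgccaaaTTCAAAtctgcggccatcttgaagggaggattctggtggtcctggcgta
Kif18b, chr11:102925095-102925214, minus strand: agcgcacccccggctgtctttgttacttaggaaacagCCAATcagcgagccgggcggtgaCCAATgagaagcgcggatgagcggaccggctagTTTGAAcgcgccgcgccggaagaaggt
Kif22, chr7:127042391-127042510, minus strand: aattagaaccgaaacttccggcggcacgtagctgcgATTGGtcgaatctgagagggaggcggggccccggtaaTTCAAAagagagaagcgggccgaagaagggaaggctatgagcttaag
Kif23, chr9:61946770-61946889, minus strand: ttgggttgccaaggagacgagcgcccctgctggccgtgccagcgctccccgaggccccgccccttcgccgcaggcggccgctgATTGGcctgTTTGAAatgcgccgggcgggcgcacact
Kif4, chrX:100625975-100626094, plus strand: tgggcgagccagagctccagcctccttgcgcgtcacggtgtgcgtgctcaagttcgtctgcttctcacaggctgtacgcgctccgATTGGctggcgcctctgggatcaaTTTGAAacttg
Kif1c, chr11:70700458-70700577, plus strand: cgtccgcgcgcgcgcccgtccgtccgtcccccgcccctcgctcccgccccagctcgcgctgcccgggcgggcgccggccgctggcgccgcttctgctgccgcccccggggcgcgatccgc
Kif3b, chr2:153291326-153291445, plus strand: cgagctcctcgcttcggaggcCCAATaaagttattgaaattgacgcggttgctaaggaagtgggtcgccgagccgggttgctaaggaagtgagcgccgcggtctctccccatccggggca
In Kif11, Kif15, Kif18b, Kif22, Kif23 and Kif4 a TTTGAA match begins between 19 bases before and 20 bases after the start. The Kif1c stretch holds neither set of letters, and the Kif3b stretch holds CCAAT alone.

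Total counts in named rows were 20670728 to 23323653 per library, and kinesins made up 0.0358% to 0.121% of them. CPT-11 replicate 2 stood apart, with a Spearman rho across genes of 0.931 to 0.962 with the rest of its group, whose members reached 0.973 to 0.988 with each other. Long genes were low in it. The 25% of genes that are longest had a median log2 difference from the vehicle mean of -0.48 in that library and -0.30 in CPT-11 replicate 4, against -0.09 to 0.09 in the other 6 libraries. Kinesin genes are long, with a median of 4921 bases among those tested against 2708 bases for all genes tested, so results are also given without these 2 libraries. Crypt base stem cell markers had a summed level of 1317 to 1559 CPM with vehicle and 365 to 545 CPM with CPT-11, with 3 of 5 called lower. Olfm4 made up most of this sum (means of 1236 and 356 CPM), and Ascl2 had a positive log2 fold change of 0.37 that did not pass. Enterocyte markers summed to 10914 to 18210 and 17706 to 58094 CPM, with 1 of 10 called higher by edgeR. The largest parts were Apoa1 (means of 5706 and 14516 CPM) and Fabp2 (2374 and 9161 CPM), while Lct had a log2 fold change of -0.05. DESeq2 called 3 of the 10 higher, and edgeR with each library's trend on gene length removed also called 3 higher. B and plasma cell markers summed to 1.44 to 5.89 and 7.45 to 16.1 CPM, with 4 of 5 tested called higher by edgeR. In the other 11 of 14 marker lists edgeR called 0, while DESeq2 called 2 Paneth markers, 1 tuft marker and 1 macrophage and dendritic marker lower, and 1 macrophage and dendritic marker and 1 epithelial marker higher. With the length trend removed, 3 Paneth markers and 1 macrophage and dendritic marker were lower. The part of these cells in the kinesin results was not tested.

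With CPT-11, 10 of the 11 mitotic kinesins tested were lower and 0 were higher, while 0 of the 9 transport kinesins tested and 0 of the 8 other kinesins tested passed in either direction (adjusted p below 0.05 by edgeR's quasi-likelihood test, with Benjamini-Hochberg adjustment over all 14011 genes). Over all genes tested, 5.5% were called, 2.52% as lower and 2.98% as higher. At an unadjusted p below 0.05, 11 mitotic, 2 transport and 1 of the other kinesins were lower and 0 kinesins were higher, against 11.2% lower and 13.4% higher over all genes tested. DESeq2 called 11 mitotic kinesins, 0 transport kinesins and 1 of the other kinesins lower, and 0 higher. The median log2 fold change was -0.85 for the mitotic, -0.31 for the transport and -0.46 for the other kinesins tested, against 0.01 over all genes tested. The difference between the classes was not itself tested, since the genes were chosen with results of these data known. The 28 kinesins tested are those with enough counts, and the 10 below that filter are described at the end.

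**Figure D1:**
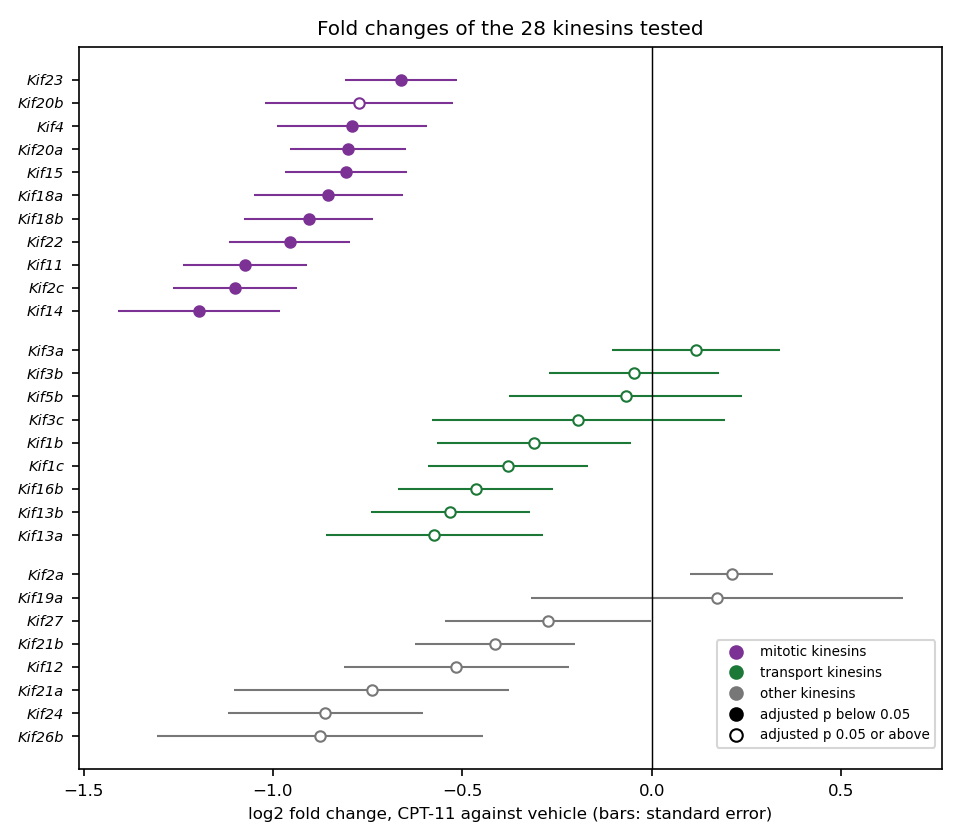
Log2 fold change of CPT-11 against vehicle (x axis) for each of the 28 kinesins tested, with its standard error as a bar and filled points for an adjusted p below 0.05. All 11 mitotic kinesins lie between -1.20 and -0.66, whereas the 9 transport kinesins lie between -0.57 and 0.12 and none of these passed.

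Without CPT-11 replicates 2 and 4, 8 mitotic and 0 transport kinesins were called lower and the medians were -0.72 and -0.14. Once each library's trend on gene length had been removed, 10 mitotic and 0 transport kinesins were called lower and the medians were -0.78 and -0.05. The calls of mitotic kinesins fell to 3 without vehicle replicate 1, to 4 without vehicle replicate 3, and to 6 without vehicle replicate 4 or CPT-11 replicate 4. All 10 kept a negative fold change in each of the 19 alternative fits, and Kif11, Kif2c and Kif22 passed in all of these.

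Among the motors that form the spindle, Kif11, which slides antiparallel microtubules to separate the poles, stood at 62.8, 44.3, 47.3 and 53.7 CPM in vehicle replicates 1 to 4 and at 30.3, 20.97, 25.7 and 21.8 CPM in CPT-11 replicates 1 to 4. Every CPT-11 library was below every vehicle library. Its level fell 2.11-fold (log2 fold change -1.07 ± 0.16 SE, edgeR adjusted p = 0.00721). CPM are TMM-normalised counts scaled to the library's total. Kif15, which can take over from Kif11 in keeping a spindle bipolar, stood at 22.6, 17.9, 19.0 and 19.8 CPM with vehicle and at 12.99, 8.57, 12.3 and 11.3 CPM with CPT-11. Its groups did not overlap either, and it fell 1.75-fold (edgeR adjusted p = 0.0206), a call lost in 4 of 19 alternatives (up to 0.0813), each of which left out 1 library (vehicle replicates 1, 3 and 4 and CPT-11 replicate 4). Kif11 lies on chromosome 19 at 37376403 to 37421859 and Kif15 on chromosome 9 at 122951046 to 123018733 (GENCODE M21, GRCm38), and both are protein-coding.

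The chromosome-bound motors moved the same way. Kif22, a chromokinesin that pushes chromosome arms toward the spindle equator (chromosome 7, 127027729 to 127042471), stood at 50.9, 40.7, 57.7 and 49.1 CPM with vehicle and at 24.8, 22.4, 22.6 and 32.3 CPM with CPT-11. The highest CPT-11 library was below the lowest vehicle library, and the fall was 1.94-fold (log2 fold change -0.96 ± 0.16 SE, edgeR adjusted p = 0.0107). Kif4, a chromokinesin that also limits microtubule growth in the midzone, stood at 29.0, 20.8, 24.8 and 30.1 CPM with vehicle and at 20.6, 12.1, 15.1 and 12.6 CPM with CPT-11. Here the groups nearly met, at 20.8 and 20.6 CPM, and the adjusted p by edgeR was 0.0491 for a 1.73-fold fall. Its call was lost in 8 of the 19 alternatives, with adjusted p values up to 0.144, among them without any 1 of the vehicle replicates and without CPT-11 replicate 3 or 4. Kif4 shares 15.1% of its exon bases with Pdzd11 on the opposite strand, and it is not stated whether the counting used strand. Pdzd11 stood at 31.8 ± 1.10 and 39.8 ± 11.99 CPM (mean ± SD, n = 4 each) and did not pass (edgeR adjusted p = 0.326).

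The kinesins that act on microtubule ends were lower by similar amounts. Kif2c, a depolymerase that corrects wrongly attached chromosomes (chromosome 4, 117159639 to 117182639), stood at 33.4, 26.6, 31.9 and 29.0 CPM with vehicle and at 16.8, 10.5, 13.98 and 15.1 CPM with CPT-11. It had the smallest p of the kinesins, with a 2.14-fold fall (log2 fold change -1.10 ± 0.16 SE, edgeR adjusted p = 0.00658). The highest CPT-11 library lay at 16.8 CPM and the lowest vehicle library at 26.6 CPM. Kif18a, which dampens chromosome oscillations at the plate, stood at 6.98, 5.45, 4.55 and 5.84 CPM with vehicle and at 3.36, 2.90, 3.52 and 2.82 CPM with CPT-11. The groups did not overlap, and the fall of 1.81-fold had an edgeR adjusted p of 0.0350, a call lost in 9 of 19 alternatives (up to 0.126). Kif18b, which limits astral microtubule length, stood at 16.7, 18.004, 18.9 and 14.8 CPM with vehicle and at 11.1, 9.31, 9.21 and 6.87 CPM with CPT-11, a fall of 1.87-fold without overlap (edgeR adjusted p = 0.0164).

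Kinesins of the midzone and of cytokinesis were lower as well. Kif14, which binds citron kinase and acts in abscission (chromosome 1, 136466343 to 136531511), had the largest fold change of all the kinesins tested. It stood at 11.3, 7.20, 8.48 and 8.49 CPM with vehicle and at 4.09, 3.39, 4.94 and 3.02 CPM with CPT-11, a fall of 2.29-fold (log2 fold change -1.20 ± 0.21 SE, edgeR adjusted p = 0.0132). No CPT-11 library reached the lowest vehicle library. Kif23, the motor of the centralspindlin complex (chromosome 9, 61915905 to 61946774), had the smallest fold change of the mitotic class. Its levels were 42.6, 30.7, 38.2 and 39.6 CPM with vehicle and 26.6, 19.2, 25.03 and 24.6 CPM with CPT-11, a fall of 1.58-fold (edgeR adjusted p = 0.0328). Its groups did not overlap, but the call was lost in 5 of the 19 alternatives, with adjusted p values up to 0.116.

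Kif20a, which brings the chromosomal passenger complex to the midzone, stood at 51.1, 41.5, 51.2 and 46.8 CPM with vehicle and at 32.8, 20.97, 26.7 and 28.6 CPM with CPT-11, a fall of 1.74-fold without overlap (edgeR adjusted p = 0.0172). Its counts were not whole numbers in any library, and 29.3% of its exon bases overlap Cdc23 on the opposite strand. Cdc23 stood at 24.6 ± 2.97 and 19.8 ± 4.50 CPM (mean ± SD, n = 4 each) and did not pass (edgeR adjusted p = 0.327). Kif20b, a midbody kinesin, did not pass. It stood at 22.3, 13.1, 14.7 and 14.8 CPM with vehicle and at 13.2, 7.40, 10.5 and 6.77 CPM with CPT-11, and CPT-11 replicate 1 lay just above vehicle replicate 2. Its log2 fold change of -0.77 ± 0.25 (SE) was close to the class median, with a wider error (edgeR adjusted p = 0.0995).

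Groups did not overlap for 10 of the 11 mitotic kinesins, all lower with CPT-11, against 10.1% of all genes tested in that direction. They did not overlap for 0 of 9 transport kinesins. A lower level in these bulk preparations can reflect fewer cells of a type or less RNA per cell, and these cannot be told apart.

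**Figure D2:**
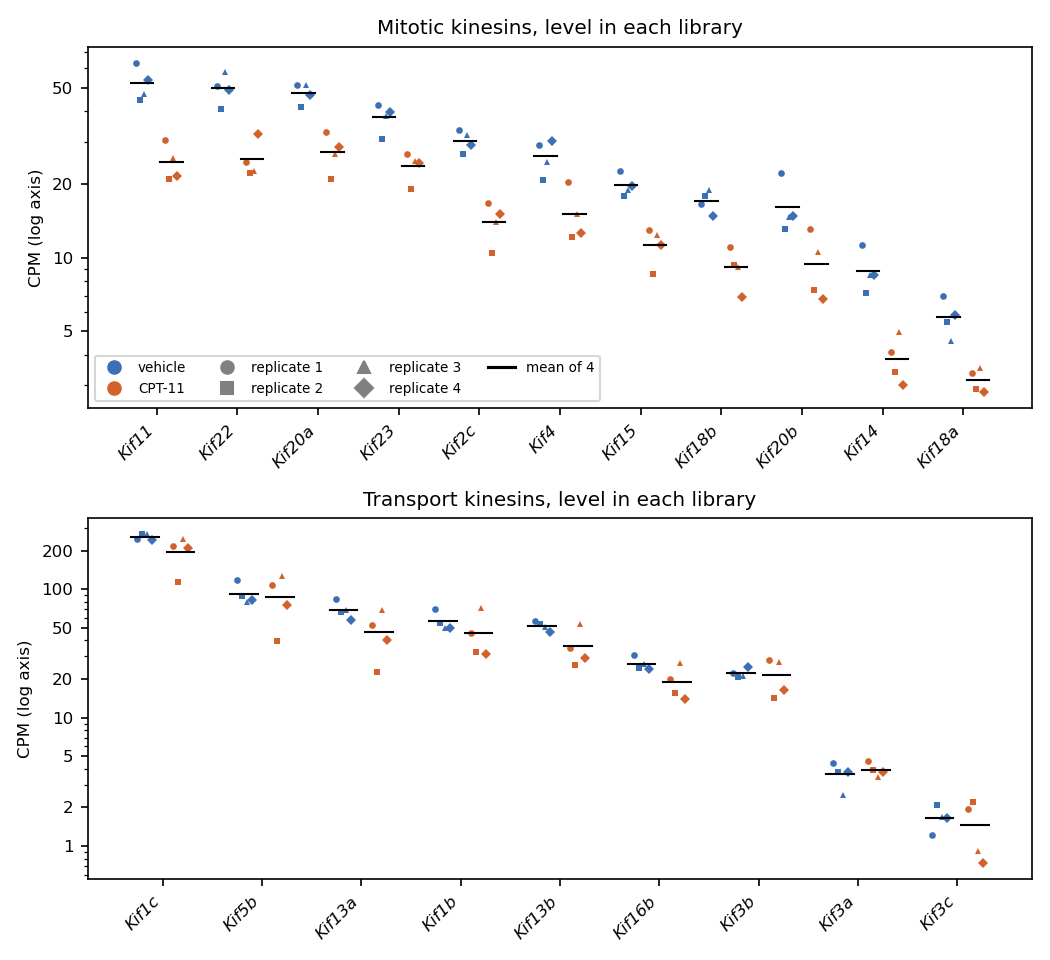
Level of each tested mitotic kinesin (top) and transport kinesin (bottom) in every library, in CPM on a log axis, with vehicle in blue, CPT-11 in orange, a marker shape for each replicate number and a line at the mean of 4. In the top panel the CPT-11 points lie below the vehicle points for every gene but Kif20b, whereas in the bottom panel the groups overlap for all 9 genes and CPT-11 replicate 2 is the lowest of the 8 libraries for 5 of them (Kif1c, Kif5b, Kif13a, Kif13b and Kif3b).

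Among the transport kinesins, Kif1c, a carrier of vesicles and of integrins, was the most abundant kinesin per length in these crypts, at 50.9 ± 2.58 CPM per kb with vehicle (mean ± SD, n = 4). The most abundant mitotic kinesin, Kif22, was at 23.4 ± 3.30 CPM per kb, above Kif5b at 15.3 ± 2.91 and Kif20a at 15.1 ± 1.46 CPM per kb, which did not differ beyond their spread. Kif1c stood at 247, 268, 268 and 244 CPM with vehicle and at 218, 115, 247 and 209 CPM with CPT-11. CPT-11 replicate 2 was far below the rest, and CPT-11 replicate 3 was inside the vehicle range. The log2 fold change was -0.38 ± 0.21 (SE) and did not pass (edgeR adjusted p = 0.290).

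Kif5b, the heavy chain of conventional kinesin found in most tissues, stood at 118, 88.6, 79.3 and 83.0 CPM with vehicle and at 109, 40.0, 127 and 75.1 CPM with CPT-11. Its CPT-11 libraries spread on both sides of the vehicle range, and the log2 fold change was -0.07 ± 0.31 (SE, edgeR adjusted p = 0.904), with the opposite sign in 5 of the 19 alternatives. Kif13a, a carrier to recycling endosomes, stood at 83.7, 66.6, 68.7 and 57.4 CPM with vehicle and at 53.2, 22.8, 69.0 and 40.4 CPM with CPT-11. It had the lowest fold change of the class (log2 -0.57 ± 0.29 SE, edgeR adjusted p = 0.241), and CPT-11 replicate 3 exceeded vehicle replicates 2, 3 and 4. Kif16b, an early endosome motor, stood at 30.9, 24.4, 26.1 and 24.1 CPM with vehicle and at 19.9, 15.7, 26.8 and 13.99 CPM in the CPT-11 libraries (log2 fold change -0.46 ± 0.20 SE, edgeR adjusted p = 0.197). Again CPT-11 replicate 3 was within the vehicle range and the other 3 CPT-11 libraries were below it.

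Kif13b, a transporter of phosphoinositide-bound vesicles, is given in full because it had the smallest p of the transport class, a choice made after its values were seen. It stood at 56.9, 53.9, 50.6 and 46.9 CPM with vehicle and at 35.1, 26.0, 53.4 and 29.4 CPM with CPT-11. The log2 fold change was -0.53 ± 0.21 (SE, edgeR adjusted p = 0.158), and it passed without CPT-11 replicate 3 (0.0162) and by limma-voom with quality weights (0.0106). Kif16b passed in the same alternatives (0.0412 and 0.0471). With the length trend removed, Kif13b was at -0.28 and Kif16b at -0.33, and without CPT-11 replicates 2 and 4 they were at -0.23 and -0.17.

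The remaining transport kinesins had small differences or wide errors. Kif1b, a carrier of mitochondria and synaptic vesicle precursors, had a log2 fold change of -0.31 ± 0.26 (SE, edgeR adjusted p = 0.466). The heterotrimeric kinesin that drives intraflagellar transport is built from Kif3a with Kif3b or Kif3c. Kif3a was at 3.62 ± 0.799 and 3.93 ± 0.486 CPM, Kif3b at 22.3 ± 1.88 and 21.5 ± 7.25 CPM, and Kif3c at 1.66 ± 0.353 and 1.46 ± 0.737 CPM with vehicle and CPT-11 (mean ± SD, n = 4 each). None of the 3 passed, with log2 fold changes of 0.12 ± 0.22, -0.05 ± 0.23 and -0.19 ± 0.39 (SE) and edgeR adjusted p values of 0.763, 0.912 and 0.778. Kif3c shares 35.3% of its exon bases with an antisense gene and had no whole counts, so its level is uncertain.

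The summed level of the mitotic kinesins was 350, 266, 317 and 312 CPM in vehicle replicates 1 to 4 and 197, 138, 170 and 166 CPM in CPT-11 replicates 1 to 4. All 4 CPT-11 libraries were below all vehicle libraries. The transport kinesins summed to 636, 584, 569 and 538 CPM with vehicle and to 517, 274, 628 and 421 CPM with CPT-11. CPT-11 replicate 3 thus held as much transport kinesin as the vehicle libraries, while its mitotic sum, 170 CPM, was below the lowest vehicle sum, 266 CPM. Per length, mitotic kinesins made up 42.4% ± 2.59 of the kinesin signal with vehicle and 33.2% ± 4.33 with CPT-11 (mean ± SD, n = 4 each), ranging over 38.6% to 44.1% and 27.2% to 37.2%, without overlap. Within the CPT-11 group the share was highest in replicates 2 and 4 (37.2% and 35.1%), where long genes were low, and lowest in replicate 3 (27.2%). The part of gene length in this share was not tested.

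**Figure D3:**
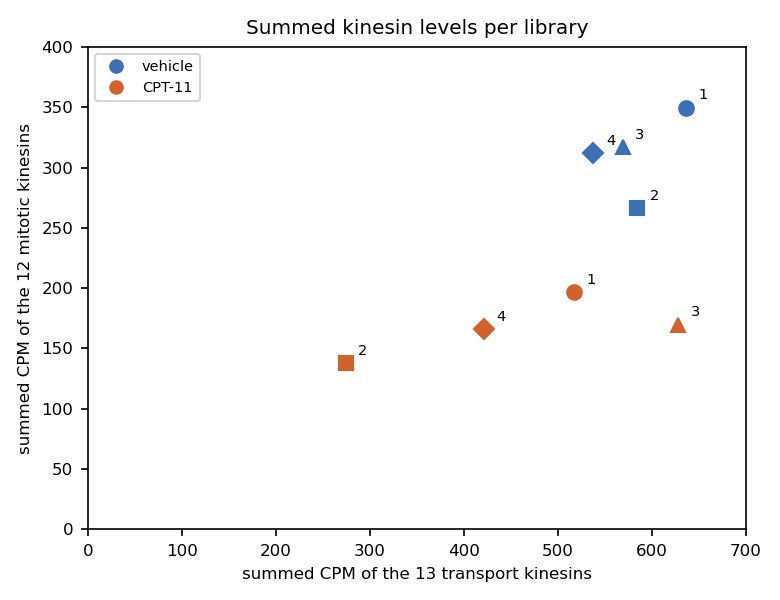
Summed CPM of the 12 mitotic kinesins (y axis) against that of the 13 transport kinesins (x axis) in each library, with vehicle in blue, CPT-11 in orange and the replicate number beside each point. The CPT-11 libraries lie between 138 and 197 CPM on the mitotic axis, below the vehicle libraries at 266 to 350 CPM, but spread from 274 to 628 CPM on the transport axis.

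CPT-11 replicate 2 had less of most kinesins than the mean of the other 3 CPT-11 libraries, at a median of 75.7% of it for the mitotic and 65.6% for the transport class. The mitotic kinesins ranged from 68.7% (Kif2c) to 103% (Kif18b), and the transport kinesins from 38.5% (Kif5b) to 184% (Kif3c). Across the 28 kinesins tested the log2 of this ratio had a Pearson r of -0.47 with log2 gene length and a Spearman rho of -0.54. This describes genes that share 1 library and is no replicate test. The transport kinesins tested were longer than the mitotic ones, with medians of 6032 and 3398 bases.

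**Figure D4:**
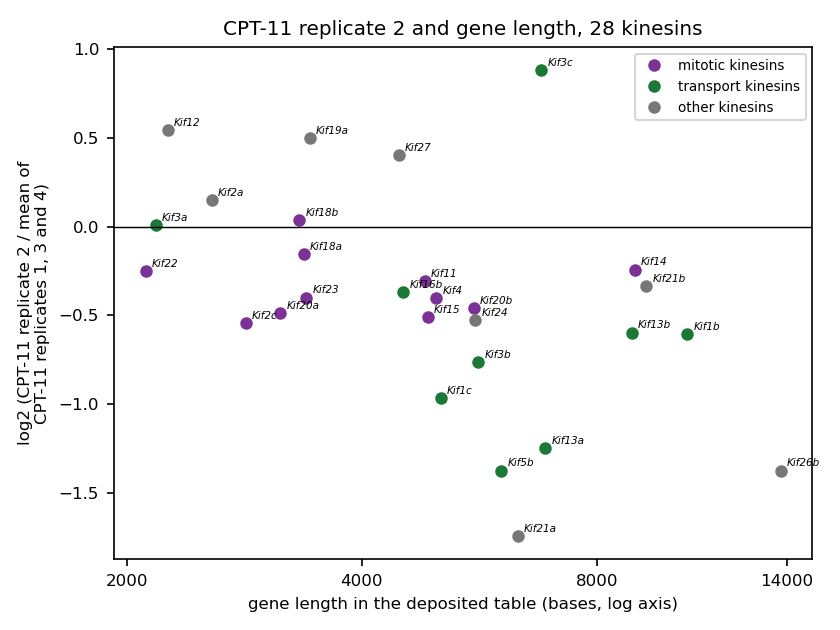
Log2 ratio of CPT-11 replicate 2 to the mean of CPT-11 replicates 1, 3 and 4 (y axis) against gene length in bases on a log axis, for the 28 kinesins tested, coloured by class. The lowest ratios belong to Kif21a, Kif26b and Kif5b, but genes of like length differ, with the short Kif2c at -0.54 and Kif2a at 0.15, and the long Kif3c highest at 0.88.

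The other kinesins varied in direction. Kif2a, a microtubule depolymerase of neurons and of spindle poles, was the most abundant of them per length. It stood at 29.3, 31.3, 28.1 and 30.6 CPM with vehicle and at 34.3, 37.3, 34.8 and 31.8 CPM with CPT-11. It was thus the only kinesin tested whose CPT-11 libraries were all above the vehicle libraries, which 8.41% of all genes tested were, but the difference was small and did not pass (log2 fold change 0.21 ± 0.11 SE, edgeR adjusted p = 0.259). None of its counts was whole, and 19.2% of its exon bases overlap Dimt1 on the opposite strand, which had a log2 fold change of 0.25 (edgeR adjusted p = 0.503). Counted as a mitotic kinesin, it would make 10 of 12 tested lower. Its close relative Kif2c, described above, had a log2 fold change of -1.10.

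Kif21a and Kif21b restrain microtubule growth at the cell cortex and in axons. Kif21a stood at 36.3, 25.2, 28.01 and 23.6 CPM with vehicle and at 20.0, 6.11, 27.0 and 14.3 CPM with CPT-11. Its value in CPT-11 replicate 2 was 29.9% of the mean of the other CPT-11 libraries, the lowest such share among the kinesins tested, and it did not pass (log2 fold change -0.74 ± 0.36 SE, edgeR adjusted p = 0.237). Kif21b stood at 35.5, 36.8, 37.6 and 38.5 CPM with vehicle and at 26.6, 23.3, 41.8 and 19.7 CPM with CPT-11. The vehicle libraries were close together and the CPT-11 libraries lay on both sides of them (log2 fold change -0.41 ± 0.21 SE, edgeR adjusted p = 0.252). It passed without CPT-11 replicate 3 (0.0198) and by limma-voom with quality weights (0.0230).

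Kif12 stood at 3.88, 2.42, 3.38 and 2.64 CPM with vehicle and at 1.95, 2.84, 1.26 and 2.62 CPM after CPT-11. These groups overlapped (log2 fold change -0.52 ± 0.30 SE, edgeR adjusted p = 0.305). Kif24, a centriolar kinesin that restrains the growth of cilia in cycling cells, is given because its groups did not overlap, which was seen first. It stood at 7.89, 5.21, 6.39 and 4.48 CPM with vehicle and at 3.91, 2.47, 4.19 and 2.57 CPM in the CPT-11 libraries (log2 fold change -0.86 ± 0.26 SE). It missed the threshold (edgeR adjusted p = 0.0815) and passed by DESeq2 (0.0248) and limma-voom with quality weights (0.0458). Kif26b, Kif27 and Kif19a had log2 fold changes of -0.88 ± 0.43, -0.27 ± 0.27 and 0.17 ± 0.49 (SE), and none passed (edgeR adjusted p = 0.236, 0.547 and 0.848).

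The 10 kinesins below the filter were 1 mitotic, 4 transport and 5 others, with 0 to 26 counts in any library. The motors best known from neurons were among them. Kif1a had 1 to 26 counts per library, Kif5a 0 to 17 and Kif5c 3 to 13, and the dendritic and ciliary motor Kif17 had 1 to 13. Enteric neuron and glia markers summed to 4.51 to 7.91 CPM with vehicle and 5.72 to 7.28 CPM with CPT-11, with 2 of 10 tested. The ciliary kinesins Kif6, Kif7 and Kif9 reached at most 2, 5 and 21 counts, and Kif26a at most 2. Kif2b, a spindle kinesin known from testis, and Kif28 had 0 counts in all 8 libraries, which allows up to 0.125 to 0.185 CPM per library (3 counts, counting error only).

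Of 5 kinesins tested that lack the Kif-number name, 2 were lower and 0 higher by edgeR. Over all genes tested, 2.52% were lower and 2.98% higher. DESeq2 called 3 of this list lower and 0 higher. Kifc1, the minus-end-directed spindle motor, went from 31.1 ± 3.93 to 15.8 ± 5.19 CPM (mean ± SD, n = 4 each, edgeR adjusted p = 0.0356), and its near copy Kifc5b from 9.19 ± 1.68 to 4.13 ± 1.06 CPM (edgeR adjusted p = 0.0205). Reads can be split between these copies, and both had counts that were not whole. Cenpe, the kinetochore kinesin, had a log2 fold change of -0.79 ± 0.24 (SE) and did not pass (edgeR adjusted p = 0.0863). Kifc2 and Kifc3, which act in transport and at junctions, had log2 fold changes of 0.39 and -0.10 (edgeR adjusted p = 0.525 and 0.799).

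A list of 25 genes tested held partners of the mitotic kinesins and other genes of dividing cells, such as Mki67 and Top2a. Of these, 15 were lower (2.52% over all genes tested) and 0 higher, with a median log2 fold change of -0.90. The count fell to 5 without vehicle replicate 1 and to 6 without vehicle replicate 3, and ranged from 5 to 16 with 1 library left out. That list was drawn up with earlier results of these data known and is no independent evidence of its direction. Racgap1, the other subunit of centralspindlin, had a log2 fold change of -1.07 ± 0.12 (SE, edgeR adjusted p = 0.00179), against -0.66 ± 0.15 for its partner Kif23. The mitotic kinases Aurkb and Plk1 and the spindle protein Nusap1 fell 2.14-fold, 1.91-fold and 2.21-fold (edgeR adjusted p = 0.00216, 0.00449 and 0.00453). Cit, the citron kinase that Kif14 binds, fell 2.60-fold (edgeR adjusted p = 0.0170), Prc1, the midzone bundler that recruits Kif4, fell 1.98-fold (0.0143), and Tpx2, which binds Kif11 and Kif15, fell 1.64-fold (0.0374). These 3 were chosen after their values were seen, for the kinesins they bind. Mki67, a marker of cycling cells, had a log2 fold change of -1.18 ± 0.26 (SE, edgeR adjusted p = 0.0296), within the range of the mitotic kinesins. The other 10 of the 25 did not pass. Among them were Cdk1, the kinase that drives entry into mitosis, at a log2 fold change of -0.43 (edgeR adjusted p = 0.154), its cyclin Ccnb1 at -0.30 (0.225), and the chromosomal passenger genes Birc5 at -0.39 (0.260) and Cdca8 at -0.41 (0.155), also chosen after their values were seen. The part of cell number in these levels was not tested.

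Among 17 light chains and cargo adaptors tested, edgeR and DESeq2 each called 0 lower and 0 higher, and 0 had an unadjusted p below 0.05 by edgeR (11.2% lower and 13.4% higher over all genes tested), with a median log2 fold change of 0.03. Klc1, a light chain of conventional kinesin, had a log2 fold change of -0.14 ± 0.11 and Kifap3, the accessory subunit of the Kif3 motors, of -0.24 ± 0.15 (SE, edgeR adjusted p = 0.433 and 0.333). Calls in the next pair of lists were few, and over all genes tested 2.52% were lower and 2.98% higher. Of 16 intraflagellar transport genes 1 was lower (Ift140, log2 fold change -0.75, edgeR adjusted p = 0.0445) and 1 higher (Ift22, 1.08, 0.0309), with a median of 0.09. Of 22 genes of dynein and dynactin, the motor that runs toward the opposite microtubule end, edgeR called 0 lower and 1 higher. DESeq2 called 1 lower and 2 higher, and so did edgeR with the length trend removed. The edgeR median was 0.08, and 3 genes were lower and 4 higher at an unadjusted p below 0.05. That gene was Dynll1, a light chain shared with other complexes (2.19-fold, edgeR adjusted p = 0.0242). The heavy chain gene Dync1h1 was at 235 ± 29.5 and 189 ± 54.5 CPM (mean ± SD, n = 4 each) and did not pass (edgeR adjusted p = 0.345).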

How the data were processed

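The authors deposited 1 table of estimated counts per gene, not normalized, with 8 columns that matched the samples by name. Its values were not whole in 10.3% to 11.1% of rows per library (tolerance 0). Per the submitters' processing notes, Bowtie2 2.4.1 and build GRCm38.p6 were used. No source used here names the counting tool or says whether it used strand. The authors' deposited gene length, in bases, was used for levels per kb.

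The 543 rows without a gene name (0.325% to 0.662% of counts) were left out. After rounding, edgeR 4.0.16 under R 4.3.3 was used (TMM scaling, edgeR's own filter at its minimum count of 10 and minimum total of 15, two-sided quasi-likelihood F test with robust dispersion), with Benjamini-Hochberg adjustment over the 14011 genes tested and a threshold of 0.05. Standard errors were derived from the F statistic. The alternatives changed the tool (DESeq2 1.42.0, or limma 3.58.1 with voom, also with quality weights), the scaling (upper quartile or RLE), the filter (none, or at least 1 CPM in 4 libraries), the genes (protein-coding alone), the libraries (each left out, or CPT-11 replicates 2 and 4 together) or the model (a block for replicate number, or the gene length trend taken out per library). The test was also run on simulated counts. These held no gene length trend and no outlying library, so that run does not cover those features of the data.

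The members and lists were chosen with earlier results of these data known. Every member that passed the filter is named. CPM in every library are given for called mitotic or transport members, Kif20b, and the 4 transport and 4 other members of highest mean CPM per kb. Coordinates are from GENCODE M21 (GRCm38), in which all 38 kinesins were found by identifier. Across the partner lists, the members given follow a set rule (up to 4 that passed with the smallest p, and fixed names). The exceptions are those said to be chosen later, and Kifc2 and Kifc3, which did not pass.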

Additional observations from a re-analysis of the deposited data

Results flagged for a closer look

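Of 66 sets of 4 values examined (each kinesin's level, and the class sums and differences, in each group), 1 held an outlying library. There the gap to the nearest neighbour, divided by the range of the set, was 0.916, above the 95% critical value of Dixon's test, 0.829. About 1 set in 20 would be marked by chance. The mean log2 CPM of the mitotic kinesins minus that of the transport kinesins came to -0.595 for vehicle replicate 2, whereas vehicle replicates 1, 3 and 4 lay between -0.328 and -0.304. It was still above every CPT-11 library, which lay between -1.24 and -0.769.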

How the results depend on the processing

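Mitotic kinesins were called lower in 8 to 11 cases and transport kinesins in 0 to 2 across the 11 alternatives that keep all libraries or drop CPT-11 replicates 2 and 4, and 0 kinesins were called higher in any alternative. With 1 library left out, the ranges were 236 to 1522 for all genes called, 3 to 12 for kinesins called lower, 3 to 10 for mitotic, 0 to 2 for transport and 0 to 1 for other kinesins. All genes called numbered 1809 by DESeq2, 3170 by limma-voom with quality weights, 1212 without CPT-11 replicates 2 and 4, and 1299 with the length trend removed. Other kinesins called lower were 1 by DESeq2 and 2 with quality weights, which also called 2 transport kinesins. The median difference between mitotic and transport kinesins was -0.54 and became -0.74 with the length trend removed. The cause of these shifts was not tested. Log2 fold changes turned sign for 6 kinesins that were not called. With quality weights, Kif5b was at 0.18 and Kif3b at 0.21. Without CPT-11 replicates 2 and 4, Kif5b was at 0.36, Kif3b at 0.32, Kif1b at 0.066 and Kif19a at -0.056. With the length trend removed, Kif5b was at 0.096, Kif3b at 0.12 and Kif3c at 0.094. With 1 library left out, Kif5b ranged from -0.31 to 0.18, Kif3b from -0.21 to 0.12, Kif3a from -0.029 to 0.23, Kif3c from -0.45 to 0.022 and Kif19a from -0.058 to 0.80. With the replicate number as a block, 10 mitotic kinesins were called lower, with Kif20b gained (0.0425) and Kif18a lost (0.0733). Same-numbered vehicle and CPT-11 libraries correlated at 0.31, 0.17, -0.16 and 0.12, and differently numbered ones at -0.34 to 0.30. These ranges overlap, so whether the numbers pair the samples cannot be told from them. Kinesins with few counts were limited by depth.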
